A study of Mus musculus with 16 samples.

Results

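Liver iron handling was examined through 10 genes of 46078 in the count table: the hepcidin genes Hamp and Hamp2, the regulators Bmp6 and Tfr2, the plasma carriers Trf and Hpx, and Tfrc, Fth1, Ftl1 and Slc40a1, which take up, store and export iron. Their rows were found by symbol, and all 10 passed the filter on low counts. The RNA came from livers of male mice labelled C56B6/J, where the methods of the study name the strain C57BL6/J. The mice were 8 weeks old when they were put for 16 weeks on control diet (CD) or on high-fat diet (HFD). The second diet supplied 60% of calories as fat. Each diet was sampled in the fed state and after a 16 h fast, giving the groups CD fed, CD fast, HFD fed and HFD fast with 4 libraries each. The labels name no allele and no agent, and diet and feeding state are the only labelled differences. The comparisons ask how fasting and the diet each change liver transcripts, and whether fasting acts differently on the diets. The labels give 4 libraries per group without naming the mouse behind each, and the p-values measure only the spread between these libraries.

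Hepcidin is a peptide hormone of the hepatocyte that binds the iron exporter ferroportin, encoded by Slc40a1, and causes its degradation, which lowers iron release into plasma. Iron loading is read by the liver mainly through BMP6, a ligand made by sinusoidal endothelial cells, which acts on hepatocyte receptors and SMAD proteins to raise Hamp transcription. Inflammation raises Hamp by a separate route, through IL-6 and STAT3. Within the cell, iron regulatory proteins bind hairpins called iron-responsive elements (IREs): in a 5′ untranslated region they block translation, and in a 3′ untranslated region they stabilise the mRNA. These proteins therefore set much of ferritin, ferroportin and transferrin receptor output at a step that mRNA counts of ferritin or ferroportin do not show.

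Hamp and Hamp2 lie in tandem on the minus strand of chromosome 7 (GRCm38), at chr7:30942368-30944032 and chr7:30922372-30924681. The 150 bases before the RefSeq start of each (GRCm38.p6, minus strand, chr7:30944030-30944179 for Hamp and chr7:30924182-30924331 for Hamp2) are shown because both routes to hepcidin have letters there. Capitals mark matches on either strand to GGCGCC, the letters of a BMP response element, and to TTCNNNGAA, the letters of a STAT site.
Hamp: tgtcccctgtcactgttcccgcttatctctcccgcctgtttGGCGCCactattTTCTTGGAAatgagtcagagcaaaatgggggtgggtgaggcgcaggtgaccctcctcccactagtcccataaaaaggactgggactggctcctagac
Hamp2: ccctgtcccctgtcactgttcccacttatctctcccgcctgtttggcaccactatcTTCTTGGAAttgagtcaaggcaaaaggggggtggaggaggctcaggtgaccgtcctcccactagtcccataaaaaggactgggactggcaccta

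Aligned without gaps at a shift of 3 bases, the stretches were identical at 135 of 147 positions (91.8%). The GGCGCC match of Hamp began 109 bases before the start, at position -109, and the aligned letters of Hamp2 carried the substitution G4A, counted from 1 at the first base of the match. The STAT letters were the same in both genes and began at position -97 in Hamp and -94 in Hamp2. Among all 32851 RefSeq promoter windows of 300 bases (250 before and 50 after the start), GGCGCC was in 11.9%, TTCNNNGAA in 8.3% and both in 0.645%. Of the 8 members with a window, GGCGCC was found in 2, Hamp and Tfrc, and TTCNNNGAA in 2, Hamp and Hamp2. These matches are descriptions of letters, not of binding.

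The IRE letters were searched in the principal transcripts of protein-coding genes (GENCODE vM21) as the 6-base loop CAGTGN closed by 5 base pairs, G-T pairs allowed, with an unpaired C just before the 5′ arm of the stem. Of 21870 genes, 21 (0.096%) held such a hairpin in the 5′ untranslated region and 111 (0.508%) in the 3′ untranslated region. Members with hits were Fth1, Ftl1 and Slc40a1 with 1 each in the 5′ region, and Tfrc with 4 in the 3′ region. The 27-base stretches are shown because iron regulatory proteins bind hairpins of this kind. Capitals mark the bulged C and the loop. Positions are chr19:9982733-9982759 (plus strand) for Fth1, chr7:45459780-45459806 (minus) for Ftl1, chr1:45925466-45925492 (minus) for Slc40a1 and chr16:32631220-32631246 (plus) for the 5′-most of Tfrc. The other members had 0 matches.
Fth1: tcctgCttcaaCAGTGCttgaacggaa
Ftl1: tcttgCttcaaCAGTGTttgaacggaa
Slc40a1: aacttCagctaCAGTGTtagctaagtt
Tfrc: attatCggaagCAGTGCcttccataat

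The libraries held 41364448 to 57583153 counts. Levels are given as CPM, the gene's share of the library's counts after TMM scaling, expressed per 1000000 counts. In each library 3 counts, taken as the limit of detection, equalled 0.0536 to 0.0767 CPM, a floor that covers counting error only. The labelled tissue was checked by 6 hepatocyte markers, which had counts in every library and summed to 80135 to 140090 CPM. HFD fed replicate 4 stood apart in several members: it had the highest Hamp, Bmp6, Trf, Hpx and Ftl1 and the lowest Tfr2 of its group. Hamp and the member calls that change without it are therefore also given without it, a choice made after its values were seen. HFD fast replicate 4 also had the highest Hamp and Ftl1 and the lowest Tfr2 of its group, but not the highest Bmp6, Trf or Hpx. Over all genes tested, the deviations of these libraries from their group means correlated at 0.66. No fit left out both. In whole-liver RNA, fewer cells of a type and less RNA per cell cannot be told apart.

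Per kilobase of principal transcript, Hpx was the most abundant member and Bmp6 the least. Mean CPM per kb over the 16 libraries was 2317 for Hpx, 2271 for Ftl1, 1469 for Hamp and 732 for Fth1. It was 193 for Trf, 151 for Tfr2, 43.8 for Slc40a1, 16.8 for Hamp2, 4.88 for Tfrc and 1.57 for Bmp6. In this order the library ranges of neighbours overlapped from Hpx through Fth1, between Trf and Tfr2, and from Slc40a1 through Tfrc. They did not overlap between Fth1 and Trf, between Tfr2 and Slc40a1, or between Tfrc and Bmp6. Fth1 was the steadiest member, with a highest library 1.38 times its lowest, whereas Hamp varied 5.32-fold and Hamp2 35.1-fold in CPM.

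**Figure D1:**
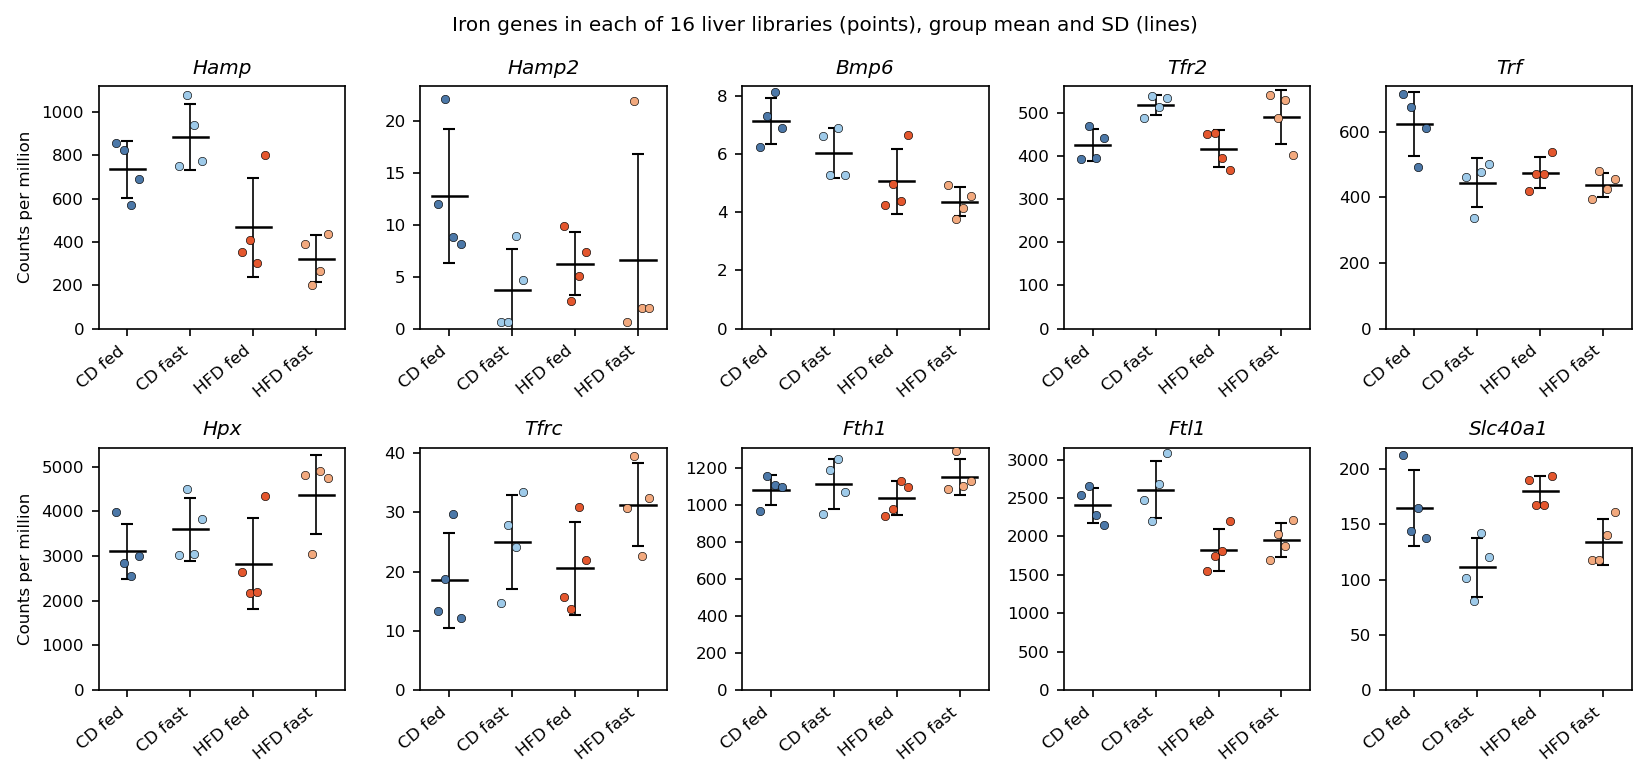
Scaled CPM (vertical axes, from 0) of the 10 iron genes in the 4 groups. Points are single libraries, horizontal lines the group means and bars the SD (n = 4). Hamp was at 202 to 434 CPM in the 4 HFD fast libraries and at 748 to 1076 CPM in the 4 CD fast libraries.

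Hamp transcripts fell by 63.5% in HFD fast relative to CD fast livers (log2 change -1.45, SE 0.29, adjusted p = 0.00975). In the same comparison 1 of 6 hepatocyte markers fell, Tat by 1.92 (adjusted p = 0.0123), beside 7.70% of all genes called. The list median was -0.34, with summed levels of 80135 to 114150 CPM in HFD fast and 95016 to 118734 CPM in CD fast livers. The part of these markers' change in the Hamp result was not tested. In fed mice the estimate was -0.66 (SE 0.29), which did not pass the test (adjusted p = 0.181). Fasting itself gave estimates of 0.27 on CD (adjusted p = 0.525) and -0.53 on HFD (adjusted p = 0.258). The estimate on HFD was -0.14 (adjusted p = 0.734) without HFD fed replicate 4, and -0.71 without HFD fast replicate 4, which did not pass either. The difference between these fasting estimates, the diet by fasting interaction, was -0.80 with a 95% interval of -1.65 to 0.06 and an adjusted p of 0.280, so a different fasting response of Hamp on the diets was not shown. Without HFD fed replicate 4 the interaction was -0.40 (adjusted p = 0.478). Without HFD fast replicate 4 it was -0.97 and did not pass either.

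The single libraries show where these estimates come from. Hamp stood at 855, 825, 570 and 689 CPM in CD fed livers and at 748, 1076, 940 and 772 CPM in CD fast livers. It stood at 355, 407, 304 and 801 CPM in HFD fed livers and at 390, 202, 265 and 434 CPM in HFD fast livers. Every HFD fast library lay below every CD library of either feeding state, while in HFD fed livers 3 libraries lay below all CD libraries and replicate 4 lay among them. Without HFD fed replicate 4, the HFD estimate in fed mice was -1.05 and passed the test (adjusted p = 0.0203). In the 15 fits that left out another library it did not pass, with estimates as small as -0.50 and adjusted p up to 0.390. In the average of both feeding states (8 against 8 libraries, a contrast chosen after the values were seen), Hamp fell by 51.8% on HFD (log2 change -1.05, SE 0.20, adjusted p = 0.00430), and the change was -1.25 (adjusted p = 0.000635) without HFD fed replicate 4.

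Hamp was 1 of 10 members called for HFD in fasted mice, where 7.70% of the 15075 genes tested were called. Without HFD fed replicate 4, which enters that comparison only through the shared estimate of spread, Bmp6 (adjusted p = 0.0338) and Ftl1 (0.0483) were called as well. For HFD in fed mice 0 of 10 members were called by edgeR against 7.50% of all genes, with 4 at an unadjusted p under 0.05, 3 called by DESeq2 (Bmp6, Trf and Ftl1) and 1 by limma-voom (Bmp6). Without HFD fed replicate 4, edgeR called 3 (Hamp, Bmp6 and Ftl1). In the averaged HFD contrast 3 of 10 members were called, Hamp, Bmp6 and Ftl1, all lower, against 12.0% of all genes. The median change of the members was -0.26 for HFD in fed mice and 0.01 in fasted mice, beside 0.01 over all genes in both.

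Hamp2, the product of a duplication of hepcidin in the mouse, was a minor transcript at 0.629 to 22.1 CPM and was not called by edgeR in any contrast. It stood at 12.0, 22.1, 8.85 and 8.18 CPM in CD fed and at 0.637, 0.639, 8.88 and 4.68 CPM in CD fast livers. It stood at 9.82, 2.69, 5.08 and 7.37 CPM in HFD fed and at 0.629, 21.9, 1.95 and 2.0 CPM in HFD fast livers. All fed libraries were above 2.6 CPM, whereas 5 of 8 fasted libraries were at or below 2.0 CPM and HFD fast replicate 2 was among the highest. The averaged fasting change was -0.84 (SE 0.65, adjusted p = 0.355), and -1.91 without that replicate (adjusted p = 0.0151). Over all libraries limma-voom called this contrast at -1.75 (adjusted p = 0.0449). Hamp and Hamp2 are gene copies, so that reads common to both could be split or dropped by the counting, and how far their transcripts are alike was not measured. Both also overlap Gm44662 on the opposite strand.

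**Figure D2:**
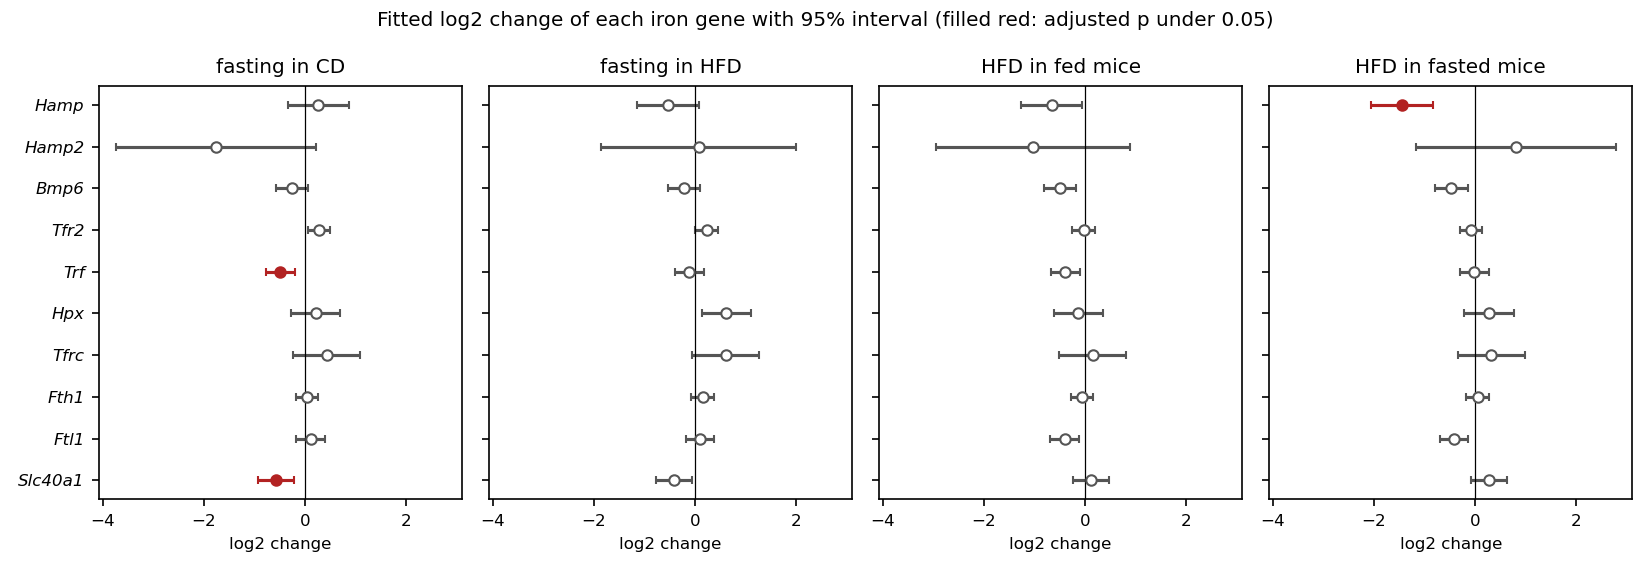
Fitted log2 change (horizontal axis) of each of the 10 iron genes in 4 comparisons, with the 95% interval. Filled red points passed an adjusted p under 0.05, which were Trf and Slc40a1 for fasting on CD and Hamp for HFD in fasted mice.

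Bmp6 encodes the ligand that drives hepcidin transcription, and sinusoidal endothelial cells are its main source in liver. Bmp6 stood at 6.23, 7.31, 8.13 and 6.91 CPM in CD fed, 6.62, 5.29, 6.91 and 5.29 CPM in CD fast, 4.23, 4.97, 4.39 and 6.66 CPM in HFD fed, and 4.94, 3.78, 4.15 and 4.54 CPM in HFD fast livers. The HFD fast and CD fast libraries did not overlap, and in the fed state only HFD fed replicate 4 reached the CD range. The HFD changes were -0.50 in fed mice (adjusted p = 0.0563) and -0.47 in fasted mice (adjusted p = 0.0684), neither of which passed the test. Averaged over feeding states, Bmp6 fell by 28.4% (log2 change -0.48, SE 0.11, adjusted p = 0.00949). Without HFD fed replicate 4 the change in fed mice was -0.66 (adjusted p = 0.0141), and in the 15 fits without another library it did not pass, with estimates as small as -0.42 and adjusted p up to 0.157. Counts were low, between 167 and 441 per library, and the gene overlaps Txndc5 and 4930579J19Rik on the opposite strand. Sinusoidal endothelial markers summed to 218 to 241 CPM in HFD fed and 232 to 260 CPM in CD fed livers, and to 204 to 266 CPM in HFD fast and 167 to 218 CPM in CD fast livers. Of the 6 endothelial markers 0 were called for HFD in fed mice, beside 7.50% of all genes. In fasted mice 2 rose and 0 fell, beside 7.70% of all genes called. The part of these cells in the Bmp6 values was not tested.

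Among target genes of the BMP pathway, Atoh8, Smad7 and Id1 fell on HFD in fed mice, and Atoh8 also fell in fasted mice. Smad6 and Bambi, also listed under BMP and SMAD control, were not called for HFD in fed mice. Mean Smad6 was 7.09 CPM in CD fed, 5.60 in HFD fed, 7.28 in CD fast and 7.08 in HFD fast livers. Mean Bambi was higher on HFD, at 2.84 CPM in CD fed, 3.36 in HFD fed, 2.28 in CD fast and 2.91 in HFD fast livers. Atoh8, a transcription factor gene induced by BMP signals, fell by 1.51 on the log2 scale in fasted mice (adjusted p = 0.000895) and by 0.79 in fed mice (adjusted p = 0.0120). It stood at 20.2 to 41.1 CPM in the 8 CD libraries and at 9.83 to 19.9 CPM in the 8 HFD libraries, with no overlap. Atoh8 also fell by 0.63 with fasting on HFD (adjusted p = 0.0341), a call that was lost in 7 of 16 fits that left out a library, namely replicate 1, 2 or 3 of HFD fed or any of HFD fast (0.0518 to 0.0818), and with limma-voom (0.0524) or scaling by total counts (0.0539). Smad7, an inhibitory SMAD that BMP signals induce as feedback, fell by 1.48 on HFD in fed mice (adjusted p = 0.00245) and by 1.24 with fasting on CD (adjusted p = 0.00205). It stood at 27.6, 29.3, 21.0 and 24.3 CPM in CD fed livers but at 6.09 to 15.7 CPM in the other 12 libraries. Id1, a further BMP target, fell by 1.51 on HFD in fed mice (adjusted p = 0.0179) and was estimated at -0.56 in fasted mice (adjusted p = 0.325). The interaction for Smad7 was 0.92 (adjusted p = 0.153) and for Id1 0.94 (adjusted p = 0.292), neither of which passed. Hamp was at 884 ± 154 CPM (SD, n = 4) in CD fast livers, where Smad7 was low, and at 735 ± 131 CPM in CD fed livers, where Smad7 was high. This difference in Hamp did not pass the test (0.27, adjusted p = 0.525), and the libraries overlapped. The Id1 call was lost when replicate 1 or 2 of CD fed or replicate 1 or 3 of HFD fed was left out (adjusted p 0.0526 to 0.0585).

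**Figure D3:**
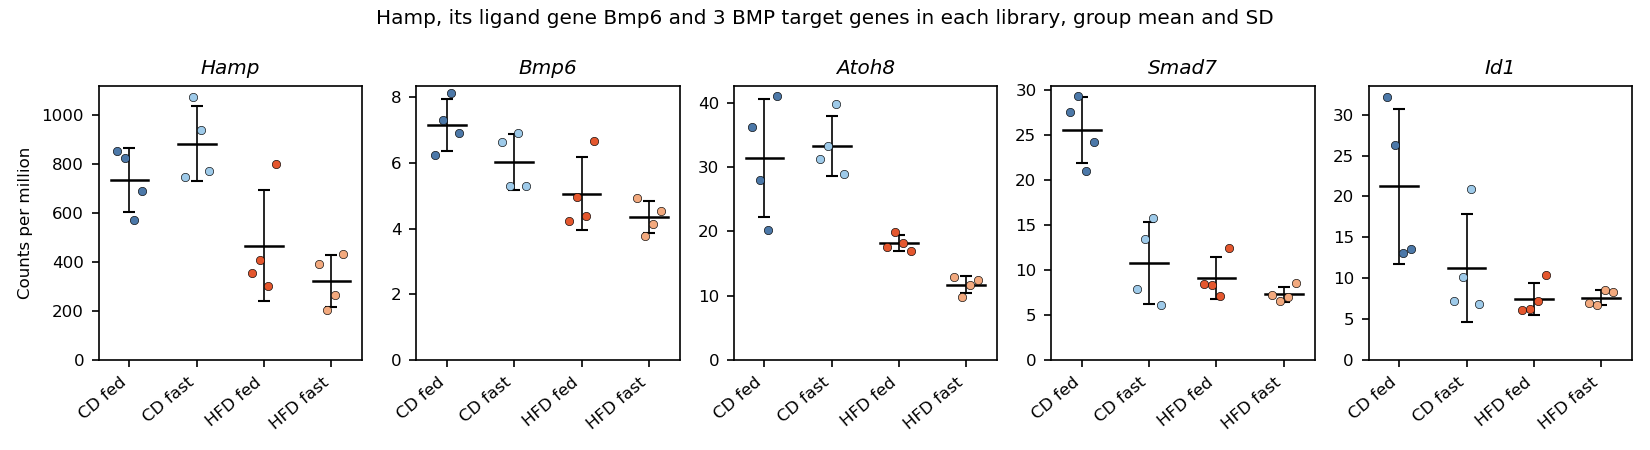
Scaled CPM (vertical axes, from 0) of Hamp, Bmp6, Atoh8, Smad7 and Id1 by group, with single libraries as points, means as lines and SD as bars (n = 4). Atoh8 separated the diets in all libraries, whereas Smad7 was high in CD fed livers alone, at 21.0 to 29.3 CPM.

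Upstream components include the BMP receptors, their co-receptor and the SMAD proteins. Of 18 listed genes of BMP and SMAD control, 7 were called for fasting on CD (1 higher, 6 lower, beside 25.2% of all genes), 2 for fasting on HFD (1 higher, 1 lower, beside 8.86%), 3 for HFD in fed mice (all lower, beside 7.50%) and 2 for HFD in fasted mice (1 higher, 1 lower, beside 7.70%). The calls for fasting on HFD and for HFD in fasted mice, 2 of 18 each, were near the share of all genes. Hjv, the BMP co-receptor hemojuvelin, rose by 0.50 with fasting on CD (adjusted p = 0.00218) and by 0.40 on HFD (adjusted p = 0.0212). Its 8 fasted libraries at 83.2 to 111 CPM lay above its 8 fed libraries at 60.4 to 76.9 CPM. Tmprss6, the protease that cleaves hemojuvelin and so restrains hepcidin, fell by 0.34 with fasting on CD (adjusted p = 0.0186). Hfe, the haemochromatosis protein gene, was estimated at 0.17 for fasting on CD (adjusted p = 0.0551), and at 0.14 in the averaged contrast (adjusted p = 0.0264). The Tmprss6 call was lost without CD fed replicate 2 (adjusted p = 0.0530), and the Hjv call on HFD when replicate 1, 2 or 3 of HFD fed or replicate 2 of HFD fast was left out (0.0537 to 0.0652). The averaged Hfe call was lost without CD fed replicate 1 or 4, CD fast replicate 3, HFD fed replicate 2 or HFD fast replicate 1 or 3 (0.0514 to 0.0627). The receptor and SMAD genes Acvr1, Acvr2a, Smad5 and Smad4 were the other calls for fasting on CD, lower by 0.20 to 0.34 in absolute log2 change. Fgl1, a secreted hepatocyte protein known as a suppressor of hepcidin, rose by 1.80 with fasting on CD (adjusted p = 0.000656) and by 2.01 on HFD (adjusted p = 0.00159).

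Tfr2 encodes the transferrin receptor of the hepatocyte that serves as a sensor of transferrin-bound iron. It stood at 392, 470, 396 and 442 CPM in CD fed and 489, 538, 513 and 534 CPM in CD fast livers, which did not overlap. It stood at 452, 454, 395 and 367 CPM in HFD fed and 541, 487, 530 and 403 CPM in HFD fast livers, which did. The fasting changes were 0.29 on CD (adjusted p = 0.0554) and 0.23 on HFD (adjusted p = 0.172). The change on CD passed the test without HFD fed replicate 4 (0.0495), CD fed replicate 2 (0.0480) or HFD fast replicate 4 (0.0298). Averaged over diets, Tfr2 rose by 19.8% with fasting (log2 change 0.26, SE 0.07, adjusted p = 0.0157). HFD gave -0.03 in fed and -0.08 in fasted mice, with 95% intervals of -0.25 to 0.19 and -0.30 to 0.14.

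Slc40a1 and Trf were the 2 members called for fasting on CD, both lower, where 25.2% of all genes were called. For fasting on HFD edgeR called 0 members against 8.86% of all genes, with 3 at an unadjusted p under 0.05, and DESeq2 and limma-voom also called 0 members. The averaged fasting contrast, chosen after the values were seen, called 3 of 10 members (Slc40a1 and Trf lower, Tfr2 higher) against 28.8% of all genes. The interaction called 0 members against 2.59% of all genes, with 0 at an unadjusted p under 0.05 and 0 by DESeq2 or limma-voom. The share of members called in the fasting contrasts was thus close to or below that of all genes.

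Slc40a1, the only known iron exporter of mammalian cells, fell by 32.6% with fasting on CD (log2 change -0.57, SE 0.17, adjusted p = 0.0225). It stood at 213, 144, 165 and 138 CPM in CD fed and 101, 80.6, 143 and 121 CPM in CD fast livers, with 1 fasted library above 1 fed library. On HFD it stood at 190.1, 168, 168 and 193 CPM in the fed and 118, 118, 140.0 and 161 CPM in the fasted state, without overlap. The change on HFD was -0.42 (adjusted p = 0.127), and the interaction of 0.15 (95% interval -0.36 to 0.65, adjusted p = 0.765) did not pass the test. Averaged over diets Slc40a1 fell by 29.1% (log2 change -0.50, SE 0.12, adjusted p = 0.00603). The call on CD was lost without CD fed replicate 1 (adjusted p = 0.0812), CD fast replicate 1 (0.0579) or CD fast replicate 2 (0.0676), and in a fit of the CD groups alone (0.0566).

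Kupffer cells, the liver macrophages that recycle iron from red cells, are also rich in ferroportin. The summed level of 7 Kupffer markers was 262 to 509 CPM in CD fed and 178 to 295 CPM in CD fast livers, which overlapped. With fasting on CD, 3 of the 7 (Adgre1, Csf1r and Clec4f) fell, beside 25.2% of all genes called. Vsig4, Cd5l, Timd4 and Marco were not called (adjusted p 0.0992 to 0.441). Their summed levels were 278 to 399 CPM in HFD fed and 232 to 407 CPM in HFD fast livers. For fasting on HFD 0 of 7 were called, beside 8.86% of all genes. Markers of other cell types fell with fasting on CD as well, namely 3 of 6 for sinusoidal endothelial cells (Stab2, Oit3 and Pecam1) and 2 of 6 for stellate cells (Reln and Hgf). The part of these cells in the Slc40a1 result was not tested.

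Trf encodes transferrin, the plasma iron carrier made by hepatocytes. It fell by 28.7% with fasting on CD (log2 change -0.49, SE 0.13, adjusted p = 0.0159), and was estimated at -0.11 with fasting on HFD (adjusted p = 0.636). It stood at 716, 675, 494 and 612 CPM in CD fed livers, 463, 337, 477 and 502 CPM in CD fast livers, 421, 470, 473 and 538 CPM in HFD fed livers and 395, 480, 426 and 457 CPM in HFD fast livers. CD fed livers were thus the high group, with 3 of their 4 libraries above the other 12. The interaction was 0.37 (95% interval -0.03 to 0.78, adjusted p = 0.284), so a difference between the diets was not shown. HFD gave -0.39 in fed mice (adjusted p = 0.0886). The fasting call on CD was lost without CD fed replicate 1 (adjusted p = 0.0524). Averaged over diets Trf fell by 18.8% with fasting (log2 change -0.30, SE 0.10, adjusted p = 0.0273), a call that was lost when replicate 1 or 2 of CD fed, replicate 4 of HFD fed or replicate 1 of HFD fast was left out (0.0518 to 0.0580). Trf overlaps Gm20425 on the same strand, so reads there may be uncertain.

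Hpx encodes hemopexin, the plasma scavenger of free haem and an acute phase protein. It stood at 3986, 2842, 2560 and 3008 CPM in CD fed, 3019, 4490, 3048 and 3820 CPM in CD fast, 2644, 2159, 2184 and 4332 CPM in HFD fed and 4803, 3042, 4889 and 4735 CPM in HFD fast livers. In HFD fed livers replicate 4 was the high value, and in HFD fast livers replicate 2 was the low value. Fasting gave 0.21 on CD (adjusted p = 0.533) and 0.63 on HFD (adjusted p = 0.105), and 0.91 on HFD without HFD fed replicate 4 (adjusted p = 0.0153). In the 15 fits without another library the change on HFD did not pass, with estimates as small as 0.52 and adjusted p up to 0.245. Averaged over diets the Hpx change was 0.42 (adjusted p = 0.0667), and 0.56 without HFD fed replicate 4 (0.00743). It also passed the test at 0.49 without CD fed replicate 1 (0.0410) and at 0.48 without HFD fast replicate 2 (0.0365).

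Tfrc, the transferrin receptor of general iron uptake, was low and variable and was not called in the fit over all 16 libraries. It stood at 13.3, 18.8, 29.7 and 12.3 CPM in CD fed, 14.6, 27.9, 24.1 and 33.5 CPM in CD fast, 15.7, 13.6, 31.0 and 22.0 CPM in HFD fed and 30.7, 39.5, 22.6 and 32.5 CPM in HFD fast livers. The groups overlapped in every comparison. The averaged fasting change was 0.52 (SE 0.22, 95% interval 0.05 to 0.99, adjusted p = 0.0899). It passed the test at 0.68 without CD fed replicate 3 (adjusted p = 0.0244), at 0.61 without CD fast replicate 1 (0.0443) and at 0.65 without HFD fed replicate 3 (0.0374). In the 13 fits that left out another library it did not pass, with estimates as small as 0.42 and adjusted p up to 0.181. The 6 erythroid markers other than Alas2 summed to 142 to 233 CPM in CD fed, 120 to 342 CPM in CD fast, 150 to 185 CPM in HFD fed and 191 to 402 CPM in HFD fast livers, and their part in the Tfrc values was not tested.

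Ferritin is built of light and heavy chains. Ftl1, the light chain of the iron storage shell, stood at 2535, 2652, 2281 and 2156 CPM in CD fed and 2469, 2206, 2677 and 3083 CPM in CD fast livers. It stood at 1547, 1749, 1806 and 2199 CPM in HFD fed and 1694, 2026, 1878 and 2213 CPM in HFD fast livers. In each feeding state the ranges touched at a single HFD library that exceeded the lowest CD library. The HFD changes were -0.40 in fed mice (adjusted p = 0.0812) and -0.42 in fasted mice (adjusted p = 0.0662), and averaged over feeding states Ftl1 fell by 24.6% (log2 change -0.41, SE 0.09, adjusted p = 0.0127). Fth1, the heavy chain with the ferroxidase site, lay between 937 and 1290.5 CPM in all libraries. Its averaged HFD change was -0.01 with a 95% interval of -0.16 to 0.15, and its averaged fasting change was 0.10 with an interval of -0.06 to 0.25. The difference between the chains was not itself tested. The processed copy Ftl1-ps1 held 409 to 1320 counts per library beside 73060 to 143016 for Ftl1, and the genes Gm22133 and Gm10252 overlap Ftl1.

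The other genes of the pathway were counted over lists fixed by function. Of 93 such genes 91 were tested, and Erfe and Steap1 fell under the filter. Fasting on CD gave 29 calls (11 higher, 18 lower), 31.9% of those tested beside 25.2% of all genes. Fasting on HFD gave 19 calls (12 higher, 7 lower), 20.9% beside 8.86%. HFD gave 10 calls in fed mice (2 higher, 8 lower), 10.99% beside 7.50%. In fasted mice HFD gave 15 calls (10 higher, 5 lower), 16.5% beside 7.70%. Whether these shares differ from those of all genes was not tested. The median change over the lists stayed between -0.07 and 0.05 in these comparisons.

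Haem is made in liver mainly for cytochromes. Alas1, the rate-limiting enzyme of hepatic haem synthesis, rose by 1.91 with fasting on CD (adjusted p = 0.0186) and was estimated at 1.34 on HFD (adjusted p = 0.129). Alas2, the erythroid isoform, fell by 1.09 with fasting on CD (adjusted p = 1.2e-05) and by 0.38 on HFD (adjusted p = 0.0365). It stood at 152, 165, 169 and 169 CPM in CD fed, 90.4, 62.1, 79.0 and 75.5 CPM in CD fast, 124, 123, 139 and 138 CPM in HFD fed and 83.3, 107, 103 and 108 CPM in HFD fast livers. This smaller fall on HFD passed the test of the difference itself (interaction 0.71, SE 0.15, adjusted p = 0.0248). It was lost when replicate 2 of CD fed or replicate 3 of HFD fast was left out (0.0538 and 0.0543), and the Alas1 call on CD without CD fed replicate 4 (0.0538). Of the 5 other erythroid markers tested 0 were called for fasting on CD, beside 25.2% of all genes. There the 4 globin genes were estimated at -0.20 (Hba-a1), 0.29 (Hba-a2), 0.20 (Hbb-bs) and -0.02 (Hbb-bt). For fasting on HFD 1 of the 5 was called, beside 8.86% of all genes. This was Slc4a1, which rose by 1.89 (adjusted p = 0.0376). The part of these cells in the Alas2 values was not tested. Alas2 transcripts carry a 5′ IRE by the same search. Slc48a1, a haem transporter, rose by 0.48 on CD (adjusted p = 0.000726) and by 0.49 on HFD (adjusted p = 0.00265), and Flvcr2 rose by 2.70 on CD (adjusted p = 0.000624). Hmox1, the inducible haem oxygenase that frees iron from haem, was not called in any of the comparisons, with estimates from -0.68 to 0.43 in the pairwise contrasts.

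Among iron uptake and ferritin turnover genes, Scara5, a receptor for ferritin, was called in all 4 pairwise comparisons. It fell by 2.30 with fasting on CD (adjusted p = 0.00262) and by 1.78 on HFD (adjusted p = 0.0219), and rose by 1.70 on HFD in fed mice (adjusted p = 0.0289) and by 2.23 in fasted mice (adjusted p = 0.0127). HFD fed livers held 36.3 to 70.4 CPM, and CD fast livers 1.16 to 7.19 CPM. Ncoa4, the receptor that delivers ferritin to lysosomes, rose by 0.42 on HFD in fed mice (adjusted p = 0.0257) and fell by 0.40 with fasting on HFD (adjusted p = 0.0311). Cp, the ferroxidase ceruloplasmin, fell by 0.40 with fasting on CD (adjusted p = 0.0422). Among iron-sulphur cluster genes, Fdx2 fell by 0.33 (adjusted p = 0.0388) and Isca1 by 0.23 (adjusted p = 0.0235) on HFD in fasted mice, and the mitochondrial iron importer Slc25a28 fell by 0.49 (adjusted p = 0.0271). Several of these calls were close to the threshold and were lost when any of several libraries was left out, while the changes kept their sign: Ncoa4 ranged from 0.33 to 0.47 and Scara5 from 1.45 to 2.14 for HFD in fed mice, and Cp from -0.47 to -0.29 for fasting on CD. The Scara5 call for HFD in fed mice was lost when replicate 1, 2 or 3 of CD fed or replicate 1 or 3 of HFD fed was left out (0.0648 to 0.0853), and for fasting on HFD when replicate 1 of HFD fed or replicate 1 or 3 of HFD fast was left out (0.0610 to 0.0707). Ncoa4 lost its call for HFD in fed mice without any 1 of the CD fed libraries or HFD fed replicate 1 or 3 (0.0504 to 0.0869), and for fasting on HFD when replicate 1 or 3 of HFD fed or replicate 1, 3 or 4 of HFD fast was left out (0.0538 to 0.0967). Slc25a28 lost it when replicate 2 of CD fast or replicate 3 of HFD fast was left out (0.0576 to 0.0812), and Cp in 9 of 16 fits that left out a library (0.0517 to 0.140).

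Acute phase genes, which share the inflammatory route of hepcidin induction, were listed beside Hamp. Of 15 listed, 7 rose and 0 fell with fasting on HFD (8.86% of all genes called), among them Saa2 by 4.62 (adjusted p = 0.0204), Saa1 by 4.07 (adjusted p = 0.0217), Orm2 by 3.65 (adjusted p = 0.00467) and Lcn2 by 2.90 (adjusted p = 0.0211). On CD (25.2% of all genes called) 2 rose, Lcn2 by 3.35 (adjusted p = 0.00494) and Saa1 by 2.85 (adjusted p = 0.0383), and 4 fell, the fibrinogen genes Fga, Fgb and Fgg with Steap4. The haemoglobin scavenger Hp rose by 0.98 on CD (adjusted p = 0.000902) and by 0.76 on HFD (adjusted p = 0.0145). On HFD, 4 of the 15 were lower in fed mice (7.50% of all genes called), with Orm1 down by 1.29 (adjusted p = 0.00869), and 5 were higher in fasted mice (7.70% of all genes called), where Hamp was lower. The interaction was called for Orm1 alone of the 15 (1.47, SE 0.37, adjusted p = 0.0452). Saa1 varied within groups, from 19.2 to 575 CPM in CD fast and 129 to 938 CPM in HFD fast livers, and its call on CD was lost without CD fast replicate 1 (1.23, adjusted p = 0.280). The Saa1 call on CD was also lost without CD fed replicate 1, 2 or 3 or CD fast replicate 2. On HFD the Saa1 and Saa2 calls were lost when replicate 1, 2 or 3 of HFD fed or replicate 3 of HFD fast was left out (0.0557 to 0.0707), and the Lcn2 call when replicate 1 or 2 of HFD fed or replicate 3 of HFD fast was left out (0.0518 to 0.0735). The Orm1 interaction was lost in 12 of 16 fits that left out a library (0.0517 to 0.0956). Of the 6 genes of IL-6 and STAT3 signalling, 1 was called for fasting on CD (Il6st, lower by 0.34 in absolute log2 change) and 0 in the other pairwise comparisons.

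**Figure D4:**
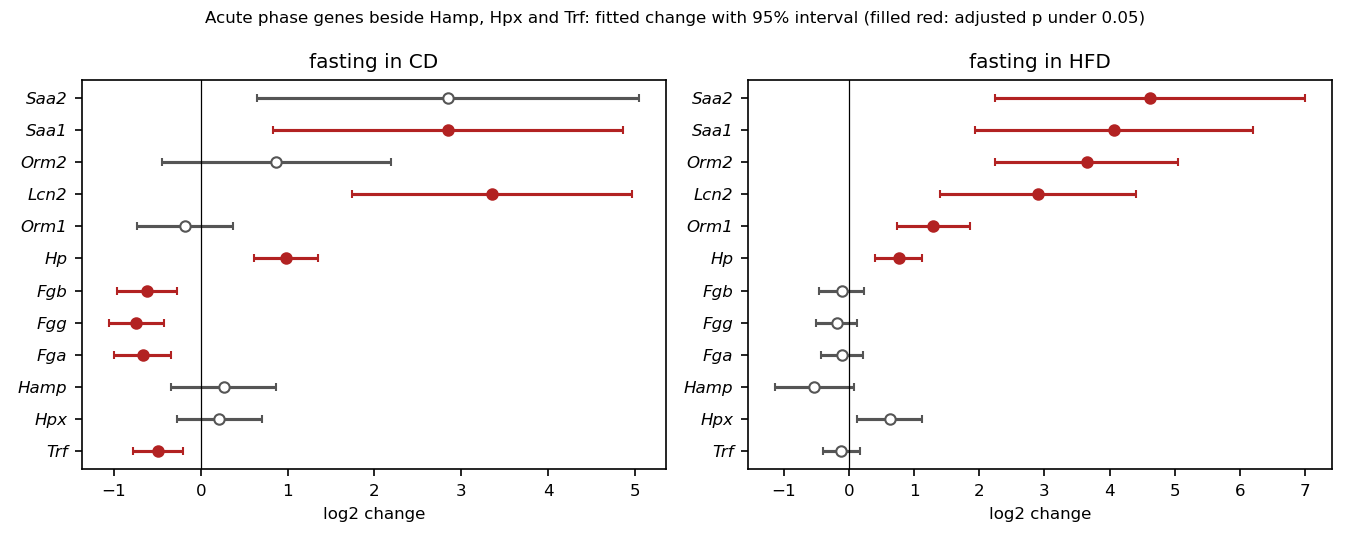
Fitted log2 change with fasting (horizontal axes) on each diet for acute phase genes and for Hamp, Hpx and Trf, with 95% intervals. Filled red points passed an adjusted p under 0.05. On HFD, Saa2, Saa1, Orm2, Lcn2, Orm1 and Hp rose, while the estimate for Hamp was -0.53, or -0.14 without HFD fed replicate 4.

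The genes most like 3 members across libraries were found by Pearson correlation of log2 CPM over the 16 libraries among 11003 genes with a mean of at least 100 counts. They are descriptions, since the points share group structure, library depth and scaling. For Hamp they were Prkar1a (0.91), Ost4 (0.90), Pabpc1 (0.90), Rps9 (0.89) and Eef1b2 (0.89). For Slc40a1 they were Tmx3 (0.94), Zbtb18 (0.91), Atf6 (0.91), Ogfrl1 (0.90) and Sdcbp (0.90), and for Tfrc Srm (0.85), Fmo2 (0.81), Pitrm1 (0.80), Ptgr2 (0.80) and Fmo1 (0.80). With Spearman correlation 2, 1 and 1 of these 5 were again among the first 5.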

How the data were processed

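RNA-seq of 16 liver libraries was analysed from the table of raw gene counts deposited by the authors, which are whole numbers per Ensembl gene and not normalized. Per the labels and methods, polyadenylated RNA was made into NEBNext Ultra II libraries, sequenced as paired ends, aligned to GRCm38 (TopHat2 2.0.11) in first-strand mode and counted with featureCounts. The annotation release and the strand setting of the counting are not given in the sources used here, so overlapping and antisense genes are uncertain. Samples were grouped by their labels, and 0 columns were left unused.

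Symbols were matched by Ensembl ID. Genes passing filterByExpr (15075) were scaled by TMM (trimmed mean of M-values) and modelled with a coefficient for each group over all 16 libraries (edgeR 4.0.16, R 4.3.3, quasi-likelihood test, Benjamini-Hochberg adjustment over all genes, threshold 0.05). Adjusted p are from this fit unless another is named. SE is the absolute log2 change over the root of F, and intervals use the fit's degrees of freedom. Libraries of a group differed beyond sampling noise in all 24 pairs (lowest chi-square per gene 37.6). Alternatives were DESeq2 1.42.0, limma-voom (limma 3.58.1), other scalings and filters, stricter call rules, fits of the compared groups alone, a replicate block and omission of each library.

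The members and lists were chosen with earlier results of these data known. The genes named were all members; up to 3 largest rises and falls of the lists per comparison with an adjusted p under 0.05; and Alas1, Hmox1, Tmprss6, Hfe, Hjv, Id1, Smad7, Cp, Hp, Lcn2 and Saa1; others were named after their values were seen. A gene that this rule names is not reported here. Both averaged contrasts were added after the values were seen. Hjv and Fdx2 were matched by older symbols. On simulated counts for HFD in fasted mice (200 of 14914 genes changed), edgeR recovered 41.8% of changes of 1.5-fold, 80.6% of 2-fold and 98.5% of 4-fold, with 6.96% false calls. DESeq2 gave 15.2% false calls.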

Additional observations from a re-analysis of the deposited data

Results flagged for a closer look

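In 136 sets of 4 libraries (34 genes by 4 groups), 6 held a library set apart from the others by Dixon's test, beside 6.8 expected by chance at 1 in 20. Hamp2 in HFD fast replicate 2 was at 21.9 CPM, beside 0.629 to 2.0 CPM in the other 3 libraries. Hpx in the same library was at 3042 CPM, beside 4735 to 4889 CPM, and Saa4 there was at 751 CPM, beside 319 to 369 CPM. Hmox1 in HFD fed replicate 4 was at 31.4 CPM, beside 15.1 to 16.8 CPM. Saa2 in CD fast replicate 1 was at 235 CPM, beside 5.65 to 40.3 CPM. Slc25a28 in HFD fed replicate 3 was at 10.9 CPM, beside 12.8 to 13.2 CPM.

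The response to fasting differed between diets for Alas2, with an interaction of 0.71 on the log2 scale, and for Orm1, with 1.47. The Alas2 interaction missed the threshold without CD fed replicate 2 (adjusted p = 0.0538) or HFD fast replicate 3 (0.0543). The Orm1 interaction missed it in 12 of 16 fits that left out a library and with the replicate block (adjusted p = 0.0602).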

How the results depend on the processing

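The fall of Hamp on HFD in fasted mice passed the test in all 9 other settings and all 16 fits without a library (log2 change -1.63 to -1.28, adjusted p 0.00397 to 0.0357). Counts of member calls that moved by over 1.5 times were as follows. For fasting on CD, 1 was called with only the groups compared, 0 at an adjusted p under 0.01 and 1 with an absolute log2 change of at least 0.5. For HFD in fed mice, DESeq2 called 3 and limma-voom 1, and for HFD in fasted mice DESeq2 called 3. For HFD averaged, 1 had a change of at least 0.5, and for fasting averaged 1 was under 0.01 and 0 had such a change. Single calls gained were Tfr2 for fasting on CD with DESeq2 (adjusted p = 0.0235) and the upper quartile (0.0388), and for fasting averaged Hamp2 with limma-voom (0.0449) and Hpx with DESeq2 (0.0338). Of the other iron genes, an adjusted p under 0.01 left 16, 4, 2 and 1 in the pairwise comparisons (fasting on CD, on HFD, HFD in fed and in fasted mice), 0 for the interaction, 6 for HFD averaged and 23 for fasting averaged. A change of at least 0.5 left 15 for fasting on CD, 11 for fasting on HFD, 7 for HFD in fasted mice, 9 for HFD averaged and 15 for fasting averaged. DESeq2 called 17 in the fed HFD comparison and 9 in the interaction. Scaling by total counts called 23 for HFD in fasted mice, 4 for the interaction and 30 for HFD averaged, without the filter 9 were called for HFD in fasted mice, and with only the groups compared 2.

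Scaling by total counts moved the median change of all genes from 0.01 to 0.17 for HFD in fasted mice and from 0.01 to 0.13 for HFD averaged. It turned the calls over all genes for HFD in fasted mice from 460 higher and 701 lower to 1849 higher and 250 lower. For HFD in fed mice they went from 495 and 636 to 915 and 415, for HFD averaged from 751 and 1058 to 2610 and 473, for fasting on HFD from 721 and 614 to 894 and 429, for the interaction from 185 and 205 to 307 and 134, and for fasting on CD from 2067 and 1731 to 1627 and 2045. In a fit of the compared groups alone, HFD in fasted mice gave 34 higher and 56 lower calls over all genes, far below the share of the fit over all libraries that stands beside the members. With the upper quartile the higher and lower calls were 996 and 812 for HFD averaged and 537 and 511 for HFD in fasted mice. They were 608 and 548 for HFD in fed mice and 198 and 189 for the interaction. The replicate numbers did not pair the libraries in general, with 8 of 24 correlations of same-numbered deviations above 0.1 and a range of -0.24 to 0.66. The highest was between replicate 4 of HFD fed and of HFD fast, which thus deviated alike. With the replicate block 1 other iron gene was called for the interaction in place of 2, and Hamp on HFD in fasted mice was -1.51. The block ended the calls of Saa1 for fasting on CD, Orm2 for HFD in fasted mice, Orm1 for the interaction and Lcn2 for HFD averaged.

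Without each library in turn, member calls ranged from 0 to 3 for fasting on CD, 0 to 1 for fasting on HFD, 0 to 3 for HFD in fed mice, 1 to 3 for HFD in fasted mice, 0 to 0 for the interaction, 3 to 3 for HFD averaged and 2 to 5 for fasting averaged. Other iron gene calls ranged from 20 to 34, 6 to 21, 3 to 13, 6 to 16, 0 to 3, 11 to 20 and 31 to 43 in the same order. In each case of a changed sign among members the adjusted p stayed above 0.05 on both sides. With total counts these were Fth1 for fasting on CD (-0.00077), HFD in fed mice (0.00999) and HFD averaged (0.11), Tfr2 for HFD in fed mice (0.042), in fasted mice (0.074), averaged (0.058) and the interaction (0.032), Trf for HFD in fasted mice (0.14) and Ftl1 for the interaction (0.072). With the upper quartile these were Trf for HFD in fasted mice (0.022) and Fth1 for HFD averaged (0.024). Hamp2 for fasting on HFD was -1.09 with limma-voom and -0.69 with the block. Ranges without a library that crossed 0 were, for Hamp2, -2.04 to 0.46 (fasting on HFD), -1.29 to 1.71 (HFD in fasted mice), -0.27 to 2.73 (interaction) and -1.16 to 0.34 (HFD averaged). They were -0.024 to 0.11 (fasting on CD), -0.022 to 0.11 (HFD in fasted mice) and -0.042 to 0.027 (HFD averaged) for Fth1, -0.071 to 0.029 (HFD in fed mice), -0.13 to 0.0027 (HFD in fasted mice) and -0.11 to 0.031 (interaction) for Tfr2, and -0.41 to 0.013 (HFD in fed mice) and -0.066 to 0.15 (HFD averaged) for Hpx. They were -0.12 to 0.47 (HFD in fed mice) and -0.15 to 0.44 (interaction) for Tfrc, -0.13 to 0.045 (HFD in fasted mice) for Trf, and in the interaction -0.051 to 0.19 for Bmp6, -0.092 to 0.082 for Ftl1 and -0.0021 to 0.28 for Slc40a1. Hamp for fasting averaged ranged from -0.22 to 0.065. Of 51 called changes of other named genes 26 kept their call in all fits run, 13 lost it in at least 1 setting and 22 without at least 1 library; of 51 that were not called, 13 changed sign and 11 were called in at least 1 fit. Of 40 group levels 1 moved by more than the SD with total counts, Tfr2 in CD fast livers (491 CPM). The cause of these changes was not tested.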
